A study of Mus musculus with 10 samples.

Results

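The genes described here encode the COMPASS complexes of the Trithorax group, the enzymes that methylate lysine 4 of histone H3 (H3K4), and they were followed across 5 mouse cell states. The members were taken by name: the methyltransferase genes Kmt2a, Kmt2b, Kmt2c, Kmt2d, Setd1a and Setd1b, the core subunit genes Ash2l, Wdr5 and Rbbp5, and Men1. Of these 10 genes, 8 were found by symbol or RefSeq accession among the 19025 genes of the files, and Kmt2d and Setd1b were not analysed here. The 8 genes also passed the filter on low values, which asked for 2 or more libraries at or above 1 FPKM and left 12907 genes for testing. FPKM scales the fragments of a gene to its transcript length and to the size of the library, so levels of different genes are compared per length.

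RNA-seq was run on 10 libraries of C57BL/6 origin, 2 in each of 5 groups, for a study of how Polycomb and Trithorax act in T lymphocytes. The Th2 + TSA group was splenic CD4 T cells kept for 5 days in 15 ng/ml interleukin-2 and 10 ng/ml interleukin-4, to which 10 nM trichostatin A (TSA), an inhibitor of histone deacetylases, was added on day 2 for the 3 days that remained. The Th2 group had the same culture without TSA. The CD4 T and B groups were freshly isolated from spleens of mice aged 6 to 8 weeks, on magnetic beads for CD4 and for B220, at a stated purity above 98%. The ES group was the embryonic stem line B6N-22, a single line, grown with leukemia inhibitory factor (1000 units/ml) and 20% serum on mouse fibroblasts whose division had been blocked with mitomycin C. Nothing in the labels tells if the replicates are separate cultures or animals, so the p-values reflect only the spread among these samples, which can be technical.

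Each COMPASS complex is built around 1 methyltransferase with a SET domain, which alone has weak activity. Wdr5, Rbbp5, Ash2l and Dpy30 form the core that docks to the enzyme and stimulates it. Setd1-type enzymes lay down most of the trimethylated H3K4 at active promoters, Kmt2a and Kmt2b act at subsets of promoters such as those of Hox genes, and Kmt2c and Kmt2d place monomethylated H3K4 at enhancers. Menin, the product of Men1, binds Kmt2a and Kmt2b and brings them to chromatin, and in T helper cells menin and Kmt2a are known for keeping Gata3 and the Th2 cytokine genes active.

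The libraries matched their labels by most defining markers. The summed FPKM of 6 pluripotency markers was 1458 to 1463 in ES libraries and at most 2.48 in the others. That of 6 T cell markers was 1061 in both Th2 + TSA libraries, 1124 to 1134 in Th2 and 1847 to 1849 in CD4 T, against 26.9 to 27.2 in B and 4.21 to 4.81 in ES libraries. The 6 Th2 markers summed to 445.3 to 629 FPKM in Th2 + TSA, 315.5 to 409.2 in Th2 and 27.75 to 28.07 in CD4 T libraries. Il1rl1, 1 of these 6, went the other way, with means of 0.675 FPKM in Th2, 1.435 in CD4 T and 25.13 in ES cells. B cell markers stood in the CD4 T libraries at 4.74% to 5.95% of their level in B libraries, and 6 of 6 macrophage markers were above 1 FPKM in CD4 T cells, with a sum of 355.3 FPKM. All 6 were above 1 FPKM in B cells too, with a sum of 99.45 to 99.72, and the sum was 63.97 to 65.81 in ES libraries. Within the ES, B and CD4 T groups the paired libraries were as close as read sampling alone would leave them (SD of the log2 ratio 0.038, 0.039 and 0.041, against 0.306 in Th2 + TSA and 0.259 in Th2), so their means entered as 1 sample per group. The Th2 groups have n = 2. Between 9652 and 11456 genes per library reached 1 FPKM, and the depth in reads is unknown.

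Kmt2a and Kmt2c, 2 of the 4 measured enzyme genes, were high in the freshly isolated lymphocytes and low in the other states. Kmt2a (ENSMUSG00000002028, minus strand of chr9:44803355-44881296, mm10, 36 exons) had 19.8 and 15.4 FPKM in Th2 + TSA, 14.0 and 9.64 in Th2, 51.6 and 51.8 in CD4 T, 50.6 and 50.6 in B, and 9.78 and 10.0 in ES libraries. The CD4 T and B libraries stood together at the top, 5.23-fold above the lowest group, ES. Kmt2c (ENSMUSG00000038056, minus strand of chr5:25271798-25498783, 59 exons) had 9.0 and 7.54 FPKM in Th2 + TSA, 5.80 and 4.37 in Th2, 39.3 and 39.6 in CD4 T, 28.9 and 29.3 in B, and 7.56 and 7.48 in ES libraries. Its highest group, CD4 T, was 7.76-fold above its lowest, Th2, the widest range among the 8 genes. ES libraries overlapped the Th2 libraries for Kmt2a and the Th2 + TSA libraries for Kmt2c. An antisense gene overlaps exons of Kmt2a and a gene model on the other strand overlaps exons of Kmt2c, and the library kit does not mark strand, so reads of these partners cannot be told apart.

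The starts of these genes are shown because Kmt2a and Kmt2c moved together across the groups, while Wdr5 and Men1 did not follow them. Any link between these sequences and the levels was not tested. The set of RefSeq (GRCm38.p6) promoters used here held a start for 6 of the 8 genes, without Kmt2b and Ash2l. Each line gives the 150 bases before a start, on the coding strand. Capitals mark GC boxes (GGGCGG or its reverse complement CCGCCC, overlapping matches included), the letters that Sp1-type factors bind.
Kmt2a: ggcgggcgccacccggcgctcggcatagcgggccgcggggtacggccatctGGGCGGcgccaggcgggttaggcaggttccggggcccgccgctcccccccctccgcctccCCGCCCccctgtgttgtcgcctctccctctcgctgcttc
Kmt2c: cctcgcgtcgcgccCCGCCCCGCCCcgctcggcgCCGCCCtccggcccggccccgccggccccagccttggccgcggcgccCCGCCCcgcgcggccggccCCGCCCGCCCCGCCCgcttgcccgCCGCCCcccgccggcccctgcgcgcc
Wdr5: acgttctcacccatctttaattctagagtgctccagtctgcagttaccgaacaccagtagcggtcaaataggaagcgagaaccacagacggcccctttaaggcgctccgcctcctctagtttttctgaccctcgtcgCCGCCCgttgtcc
Men1: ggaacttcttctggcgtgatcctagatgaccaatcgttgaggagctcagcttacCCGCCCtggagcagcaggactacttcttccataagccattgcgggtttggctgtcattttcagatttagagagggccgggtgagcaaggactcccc
The windows lie at chr9:44881290-44881439 on the minus strand for Kmt2a, chr5:25498784-25498933 on the minus strand for Kmt2c, chr2:27514997-27515146 on the plus strand for Wdr5 and chr19:6334829-6334978 on the plus strand for Men1, whose first of several listed starts was taken. Kmt2c held 8 GC boxes and 32 CG dinucleotides in a window of 93.3% G and C, more CG than 99.9% of the 32851 promoter windows of the table. Kmt2a held 2 boxes and 19 CG (78.7% G and C), Wdr5 held 1 box and 11 CG (54.7%), and Men1 held 1 box and 5 CG (54%). Of all windows, 28.6% held a GC box, and the median window had 4 CG and 54% G and C. The Setd1a window (19 CG) and the Rbbp5 window (7 CG) held no such letters, which says nothing of what binds there. The Setd1a start used lies 719 bases downstream of the GENCODE start of the gene, so its window is inside the annotated gene.

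Kmt2b and Setd1a, the other measured enzyme genes, varied less. Kmt2b (ENSMUSG00000006307, minus strand of chr7:30568858-30588726, 37 exons) had 11.7 and 11.9 FPKM in Th2 + TSA, 15.1 and 14.4 in Th2, 40.1 and 40.5 in CD4 T, 31.8 and 31.9 in B, and 24.4 and 24.8 in ES libraries. Its order was CD4 T, B, ES, Th2 and Th2 + TSA, with no overlap between the libraries of any neighbours. Setd1a (ENSMUSG00000042308, plus strand of chr7:127776670-127800122, 19 exons) had 14.6 and 14.1 FPKM in Th2 + TSA, 20.3 and 20.8 in Th2, 23.6 and 23.4 in CD4 T, 22.2 and 21.9 in B, and 27.9 and 27.4 in ES libraries, a range of 1.92-fold. Setd1a shares much of its exon sequence with the same-strand protein-coding model Gm49388, so its value is uncertain where counting could split reads between them.

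Among the core subunits, Ash2l and Wdr5 peaked in ES cells with a wide margin, and Rbbp5 was also highest there, over a narrower range. Ash2l (ENSMUSG00000031575, minus strand of chr8:25815996-25847694, 16 exons), which with Rbbp5 forms the pair that activates the SET domain, had 19.8 and 13.7 FPKM in Th2 + TSA, 32.8 and 28.7 in Th2, 17.7 and 17.7 in CD4 T, 14.7 and 14.4 in B, and 95.7 and 96.2 in ES libraries. Th2 + TSA libraries fell on both sides of the CD4 T and B values, and Th2 libraries lay above them. Wdr5 (ENSMUSG00000026917, plus strand of chr2:27515157-27536535, 14 exons), the scaffold that holds the enzyme to the core, had 25.4 and 20.4 FPKM in Th2 + TSA, 32.6 and 28.5 in Th2, 23.5 and 23.0 in CD4 T, 24.5 and 25.2 in B, and 95.7 and 95.5 in ES libraries. Below ES and Th2, the libraries of the other groups lay between 20.4 and 25.4. Rbbp5 (ENSMUSG00000026439, plus strand of chr1:132477365-132505659, 14 exons) had 18.3 and 15.8 FPKM in Th2 + TSA, 18.3 and 15.7 in Th2, 26.6 and 27.4 in CD4 T, 26.4 and 26.5 in B, and 32.6 and 32.3 in ES libraries. The Th2 groups overlapped, and the range over groups was 1.91-fold.

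Men1 was the one measured gene of the 8 with its highest level in Th2 cells. Men1 (ENSMUSG00000024947, plus strand of chr19:6334979-6340891, 9 exons) had 24.3 and 29.4 FPKM in Th2 + TSA, 29.6 and 38.0 in Th2, 19.1 and 18.6 in CD4 T, 19.8 and 20.0 in B, and 22.5 and 23.2 in ES libraries. The range over groups was 1.79-fold, the narrowest of the 8. The lower Th2 library exceeded the higher Th2 + TSA library by less than the gap between the libraries of either group.

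**Figure D1:**
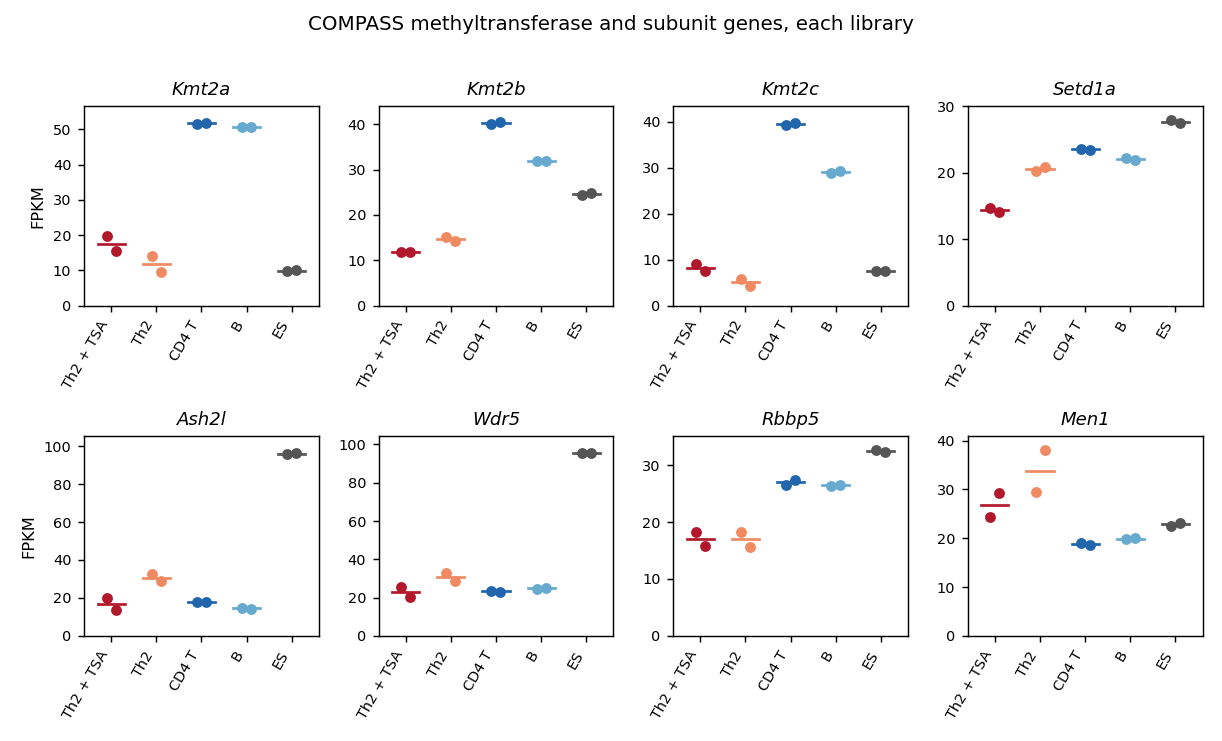
FPKM (linear axes from 0) of the 8 measured COMPASS genes in each of the 10 libraries; points are libraries and lines are group means. Kmt2a, Kmt2b and Kmt2c stand highest in the CD4 T and B libraries, Ash2l and Wdr5 in the ES libraries (95.5 to 96.2 FPKM), and Men1 in the Th2 libraries (29.6 and 38.0 FPKM).

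TSA-treated Th2 cultures were compared with untreated ones to see how the enzyme and subunit genes stood under deacetylase inhibition. Setd1a fell, to 14.4 ± 0.346 FPKM in Th2 + TSA, against 20.6 ± 0.368 in Th2 (SD, n = 2 each; log2 fold change -0.49 ± 0.06 SE, limma adjusted p = 0.0417). No other measured COMPASS gene passed the test. Thus 0 of 8 genes were called higher and 1 lower, beside 9.26% of all genes called higher and 4.14% called lower, and the median log2 fold change was -0.31 for the 8 genes and 0.02 for all genes. In bulk samples, fewer cells of a type and less RNA per cell cannot be told apart. Of all genes, 1195 were called higher and 534 lower, and 1125 higher and 1027 lower after quantile normalization.

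The enzyme genes Kmt2a and Kmt2c stood apart in direction from the other members. Kmt2a averaged 17.6 ± 3.08 FPKM in Th2 + TSA and 11.8 ± 3.1 in Th2 (SD, n = 2 each), a log2 fold change of 0.55 ± 0.25 SE (limma adjusted p = 0.22). Kmt2c averaged 8.27 ± 1.03 and 5.09 ± 1.01 in the same groups, a log2 fold change of 0.61 ± 0.18 (limma adjusted p = 0.118). Neither passed the test, and their fold changes were above those of 84.7% and 86.9% of all genes. Between libraries of the same experiment number, Th2 + TSA over Th2 was 1.41 and 1.60 for Kmt2a and 1.55 and 1.73 for Kmt2c. With the 4 libraries fitted alone and a replicate block, the limma adjusted p was 0.0553 for Kmt2a and 0.0552 for Kmt2c. The labels do not say that the experiment number pairs these libraries. The core subunit gene Ash2l averaged 16.8 ± 4.33 FPKM in Th2 + TSA and 30.7 ± 2.88 in Th2, a log2 fold change of -0.86 ± 0.22 that lay above only 3.2% of genes and missed the threshold (limma adjusted p = 0.0964). Kmt2b (-0.29), Wdr5 (-0.41) and Men1 (-0.32) had negative log2 fold changes that did not pass (limma adjusted p = 0.0824, 0.17 and 0.309), and that of Rbbp5 was 0 ± 0.13 SE. The libraries of the groups did not overlap for 7 of the 8 genes, 2 higher and 5 lower in Th2 + TSA, beside 36.7% of all genes that were higher without overlap and 27.1% that were lower. An exact permutation test of 2 against 2 samples cannot go below p = 0.33.

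The Setd1a fold change in treated cultures kept its size when any of the 4 libraries was left out, at -0.51 to -0.46 on the log2 scale. Its call was lost each time, in fits that called no gene at all without either Th2 library and 259 higher and 14 lower, or 10 higher and 0 lower, without a Th2 + TSA library. Its limma adjusted p was 0.118 without the first and 0.162 without the second Th2 + TSA library, 0.222 without the first and 0.237 without the second Th2 library, and 0.0533 after quantile normalization. Summed FPKM of 8 cell cycle genes was 847.1 to 999.6 in Th2 + TSA and 1205 to 1319 in Th2. The 6 B cell markers summed to 13.95 to 38.35 FPKM in Th2 + TSA and 4.35 to 6.29 in Th2, beside 4159 to 4163 in B libraries, and of these Pax5 was called higher in Th2 + TSA and listed at 0 in Th2. The part of either in these differences was not tested.

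Th2 cultures were compared with fresh CD4 T cells, the population from which such cultures start. Of the 4 measured enzyme genes 3 fell in culture, and of the core and menin genes only Rbbp5 did, beside 38.1% of all genes. Kmt2c fell the most, with a log2 fold change of -2.74 ± 0.22 SE (limma adjusted p = 0.00533), at 4.37 to 5.80 FPKM in Th2 and 39.3 to 39.6 in CD4 T libraries. Kmt2a fell by 2.06 on the log2 scale (SE 0.3, limma adjusted p = 0.0156) and Kmt2b by 1.39 (SE 0.08, limma adjusted p = 0.00338). In every library of Th2 cells these 3 genes were lower than in either CD4 T library. Setd1a, the fourth measured enzyme gene, had a log2 fold change of -0.19 ± 0.08 and did not pass (limma adjusted p = 0.138).

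Ash2l, Wdr5 and Men1 had positive log2 fold changes in Th2 cells that did not pass. Ash2l had a log2 fold change of 0.76 ± 0.27 SE, Wdr5 of 0.38 ± 0.19 and Men1 of 0.80 ± 0.23 (limma adjusted p = 0.0984, 0.181 and 0.0612). Rbbp5 fell by 0.64 on the log2 scale (SE 0.16, limma adjusted p = 0.046). In all, 0 of 8 genes were called higher and 4 lower, beside 16.9% of all genes called higher and 38.1% called lower, and the median was -0.41 for the 8 genes and -0.28 for all genes. The fold changes of Kmt2c, Kmt2a and Kmt2b were above those of 3.7%, 7.4% and 15.8% of all genes, and those of Ash2l and Men1 above 83.9% and 84.6%.

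Scaling and single libraries moved some of these calls. The all-gene median of -0.28 was 0.02 after quantile normalization and -0.03 with median-ratio size factors, and the all-gene calls were 2086 higher and 4709 lower as reported, 3442 and 3405 after quantile normalization, and 2875 and 3420 with size factors. After quantile normalization Men1 (1.06), Ash2l (1.04) and Wdr5 (0.63) were called higher (limma adjusted p = 0.0164, 0.0238 and 0.0371), and with size factors Men1 (1.16) and Ash2l (1.12) were (limma adjusted p = 0.0305 and 0.0478), while Rbbp5 was no longer called lower under either (limma adjusted p = 0.116 and 0.23). The Rbbp5 call was also lost without either Th2 library or either Th2 + TSA library (limma adjusted p = 0.0837 to 0.15) and with no filter on low values (0.0595), and without the second Th2 library Kmt2a was at -1.81 with a limma adjusted p of 0.0546. With FPKM sums made equal, Setd1a was called lower in Th2 cells (-0.42, limma adjusted p = 0.0463). Kmt2b and Kmt2c were called lower in Th2 cells under these settings too.

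Several other measures moved with the same contrast. Genes whose longest transcript has at least 8469 bases had a median log2 fold change of -0.75 in Th2 against CD4 T cells. Of these 471 genes, 54.4% were called lower and 7.64% higher. The median of such long genes was -0.67 in Th2 against ES cells, beside -0.41 for all genes. It was 0.03 in Th2 + TSA against Th2 cultures, beside 0.02, and 0.03 in CD4 T against ES cells, beside -0.16. Kmt2a and Kmt2c exceed this length, with transcripts of 16461 and 14967 bases. The Kmt2b transcript whose exons are counted above has 8454 bases. The longest transcript of that gene has 8469 bases and set the cut, so Kmt2b is in the set as well. The cut was thus taken from the members themselves. The 8 cell cycle genes summed to 1205 to 1319 FPKM in Th2 and 167.4 to 172.3 in CD4 T libraries. B cell markers summed to 4.35 to 6.29 FPKM in Th2 and 235 to 239.4 in CD4 T libraries, and macrophage markers, of which 2 of 6 were at 0 in Th2 libraries, to 9.13 and 355.3. The part of these in the result was not tested. The Th2 and Th2 + TSA files are also of another kind than the CD4 T, B and ES files (identical rows for 1322 against 45 of 1449 symbols with several rows), so cell state and kind of file cannot be told apart in Th2 against CD4 T or ES cells.

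Th2 cells were also set against ES cells, another dividing population. Subunit genes fell most: Ash2l by 1.62 on the log2 scale (SE 0.27, limma adjusted p = 0.0177) and Wdr5 also by 1.62 (SE 0.19, limma adjusted p = 0.00798). Rbbp5 fell by 0.90 (SE 0.16, limma adjusted p = 0.0198), Kmt2b by 0.70 (SE 0.08, limma adjusted p = 0.00832) and Setd1a by 0.41 (SE 0.08, limma adjusted p = 0.024). Kmt2a (0.21 ± 0.30 SE), Kmt2c (-0.50 ± 0.22) and Men1 (0.53 ± 0.23) did not pass (limma adjusted p = 0.575, 0.139 and 0.126). Thus 0 of 8 genes were called higher and 5 lower, beside 19% of all genes called higher and 43.1% called lower, with a median of -0.60 for the 8 genes and -0.41 for all genes. The same Th2 libraries serve in this and the preceding comparisons.

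Of the 5 calls against ES cells, Wdr5 was the one that held without either Th2 library. Kmt2b, Ash2l and Rbbp5 had limma adjusted p of 0.0543, 0.0698 and 0.0583 without the first Th2 library and of 0.0637, 0.0846 and 0.0813 without the second. Setd1a lost its call without any of the 4 Th2 and Th2 + TSA libraries (limma adjusted p = 0.0638 to 0.131), and after quantile normalization (0.3), and with size factors its log2 fold change was 0.02. Size factors also ended the calls of Kmt2b and Rbbp5 (limma adjusted p = 0.0626 and 0.0845). Calls over all genes were 2355 higher and 5329 lower as reported, 3901 and 3960 after quantile normalization, and 3303 and 3834 with size factors.

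Fresh lymphocytes were compared with ES cells to set resting T and B cells against pluripotent cells. After averaging there was 1 sample a side, so these differences have no replicate check and genes were taken by size, with a log2 fold change of at least 1 and the higher group at 5 FPKM or more. Kmt2a and Kmt2c stood higher and Ash2l and Wdr5 lower in both lymphocyte types, in numbers near the shares over all genes. In CD4 T cells Kmt2a (log2 fold change 2.27) and Kmt2c (2.25) were higher, and Ash2l (-2.37) and Wdr5 (-1.99) lower, which is 2 and 2 of 8 genes beside 19.3% of all genes higher and 23.3% lower. In B cells the same genes passed the rule, Kmt2a (2.24) and Kmt2c (1.82) higher and Ash2l (-2.64) and Wdr5 (-1.90) lower, beside 17.5% of all genes higher and 25% lower. The log2 fold change of Kmt2b was 0.69 for CD4 T and 0.36 for B cells, and those of Setd1a, Rbbp5 and Men1 lay between -0.31 and -0.19 in both. These comparisons share the ES sample. In the ES libraries 6 of 6 fibroblast markers were above 1 FPKM, with a sum of 390 to 394.8, and the part of feeder cells in the ES values was not tested. Thy1, 1 of these 6, had 59.8 FPKM in ES, 758.6 in Th2 and 305.1 in CD4 T cells, so the sum is not particular to fibroblasts. Col1a1, another, had 147 FPKM in ES, 0.31 in Th2 and 0.115 in CD4 T cells.

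None of the 8 genes passed the rule of size between CD4 T and B cells, with 1 sample a side. Of the genes tested 6.63% passed it with a higher and 4.39% with a lower level in CD4 T cells, so a count of 0 among 8 genes is near the background. The mean of the CD4 T libraries was 39.5 FPKM for Kmt2c and 40.3 for Kmt2b, against 29.1 and 31.8 in the B libraries. The log2 fold changes ran from -0.09 for Wdr5 to 0.43 for Kmt2c, with a median of 0.06, against 0.05 for all genes. Kmt2a, at 0.03, was the closest to even together with Rbbp5.

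**Figure D2:**
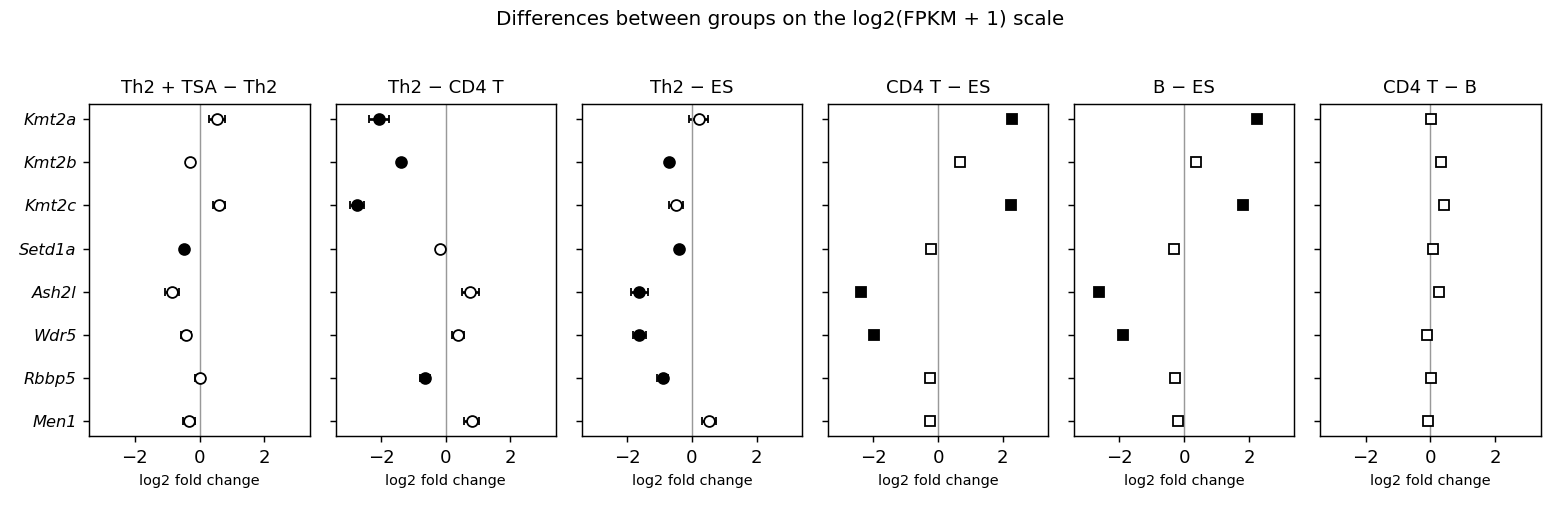
Log2 fold change on the log2(FPKM + 1) scale (horizontal axes) of each of the 8 genes (rows) in 6 comparisons; circles are limma estimates with standard errors, squares are differences between single samples, and filled symbols passed the test or the rule of size. Kmt2a and Kmt2c lie far to the left in Th2 minus CD4 T (-2.06 and -2.74) and far to the right in CD4 T minus ES and B minus ES (1.82 to 2.27), where Ash2l and Wdr5 lie to the left.

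The make-up of the measured enzyme pool differed between the groups. Summed FPKM of Kmt2a, Kmt2b, Kmt2c and Setd1a was 55.2 and 49.0 in Th2 + TSA, 55.2 and 49.2 in Th2, 154.7 and 155.4 in CD4 T, 133.5 and 133.7 in B, and 69.7 and 69.7 in ES libraries. The sum was thus almost the same in treated and untreated cultures, while the shares within it were not. Kmt2a took 35.9% and 31.5% of the sum in Th2 + TSA, against 25.4% and 19.6% in Th2, 33.4% in both CD4 T libraries, 37.9% and 37.8% in B, and 14% and 14.4% in ES libraries. Setd1a took 26.5% and 28.8% in Th2 + TSA, against 36.7% and 42.3% in Th2, 15.3% and 15.1% in CD4 T, 16.6% and 16.4% in B, and 40.1% and 39.3% in ES libraries. Kmt2c took 16.3% and 15.4% in Th2 + TSA, against 10.5% and 8.89% in Th2 and 25.4% and 25.5% in CD4 T libraries. By these 3 shares the untreated Th2 libraries were nearer to the ES libraries than the treated ones were. The shares were not tested, since an exact permutation test of 2 against 2 libraries cannot go below p = 0.33, and Kmt2d and Setd1b are missing from the sum.

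Enzyme and core transcripts changed in ratio as well. Summed enzyme FPKM divided by the mean FPKM of Ash2l, Wdr5 and Rbbp5 was 2.61 and 2.95 in Th2 + TSA, 1.98 and 2.03 in Th2, 6.84 and 6.84 in CD4 T, 6.11 and 6.07 in B, and 0.933 and 0.934 in ES libraries. The groups did not overlap, with fresh lymphocytes at the top and ES cells at the bottom. Men1 relative to Kmt2a, its enzyme partner, was 1.23 and 1.90 in Th2 + TSA, 2.11 and 3.95 in Th2, 0.37 and 0.36 in CD4 T, 0.392 and 0.395 in B, and 2.30 and 2.31 in ES libraries. By FPKM, menin transcripts were fewer than Kmt2a transcripts per length in fresh lymphocytes and more numerous in the other groups. The enzyme genes are long (16461 bases for Kmt2a, against 2975 for Men1), and the part of transcript length in these ratios was not tested. Between the Th2 groups and the others, cell state and kind of file cannot be told apart here either.

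**Figure D3:**
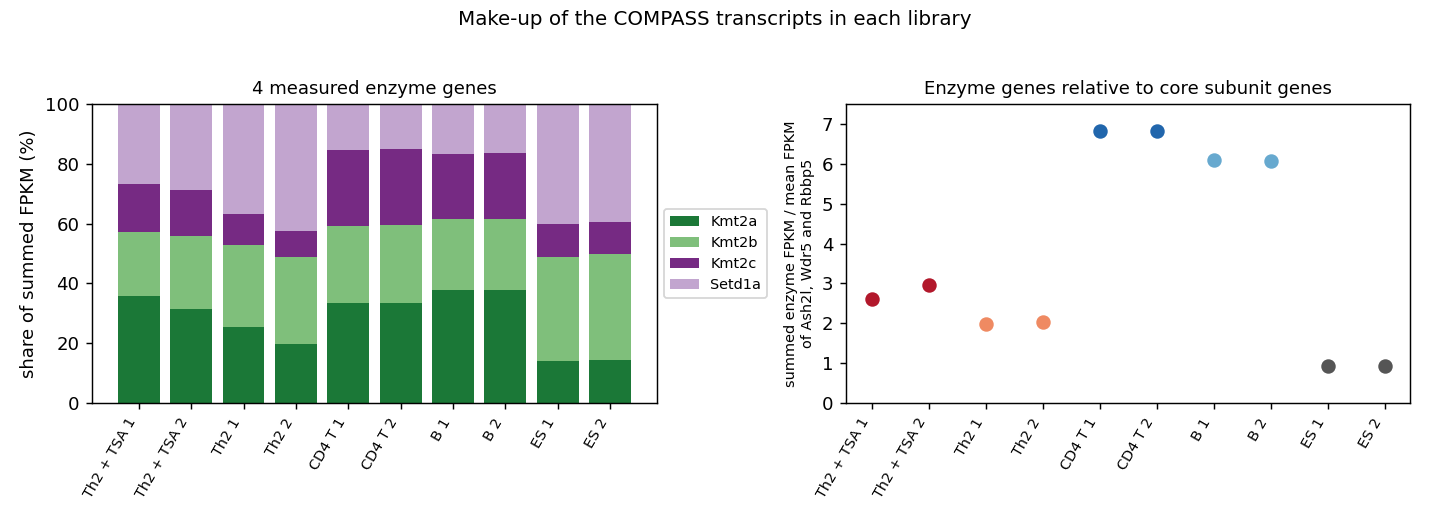
Left, share (%) of the summed FPKM of 4 enzyme genes held by each gene in each library; right, summed enzyme FPKM divided by the mean FPKM of Ash2l, Wdr5 and Rbbp5, 1 point per library. Setd1a takes most in the Th2 and ES libraries (36.7% to 42.3%), and the ratio at right is 6.07 to 6.84 in fresh lymphocytes, 1.98 to 2.95 in the Th2 groups and below 1 in ES libraries.

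Further subunits of the same complexes, 10 genes from a list chosen by function, moved in both directions. Dpy30, the fourth core subunit, rose in Th2 cells, with 70.8 and 62.8 FPKM in Th2 and 30.4 and 29.6 in CD4 T libraries (log2 fold change 1.13 ± 0.16 SE, limma adjusted p = 0.0142), and had 62.5 and 52.7 in Th2 + TSA, 27.3 and 27.4 in B, and 126.4 and 126.8 in ES libraries. Like Ash2l and Wdr5 it was lower in CD4 T (-2.04) and B cells (-2.17) than in ES cells by the rule of size. Cxxc1, the CpG-binding subunit of the Setd1 complexes, fell in Th2 cells, to 25.7 and 30.0 FPKM, against 57.9 and 59.3 in CD4 T libraries (-1.05 ± 0.13, limma adjusted p = 0.0112). Psip1, a chromatin reader that binds Kmt2a with menin, fell as well, to 44.6 and 39.1 FPKM, against 63.5 and 63.2 (-0.59 ± 0.11, limma adjusted p = 0.026). That made 1 of 10 genes called higher and 2 lower in Th2 against CD4 T cells, beside 16.9% of all genes called higher and 38.1% lower, with a median of -0.24 against -0.28 for all genes.

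The same 10 genes gave no call in Th2 + TSA against Th2 cultures, where their median was -0.28. The widest difference was that of Hcfc1, a host cell factor that joins Setd1 and Kmt2 complexes, with 29.8 and 22.2 FPKM in Th2 + TSA and 48.8 and 42.4 in Th2 libraries (-0.80 ± 0.19 SE, limma adjusted p = 0.0853). Against ES cells, Hcfc2, a relative of Hcfc1, was called higher in Th2 cells (0.91 ± 0.15, limma adjusted p = 0.0182), and Psip1 (-1.17 ± 0.11, limma adjusted p = 0.00523) and Dpy30 (-0.91, limma adjusted p = 0.0187) lower, which is 1 and 2 of 10, beside 19% and 43.1% of all genes, with a median of -0.15 against -0.41. Hcfc2 passed the rule of size upward in CD4 T (1.51) and B cells (1.53) against ES cells, and Cxxc1 in CD4 T cells (1.16). Kdm6a, Paxip1, Pagr1a and Ncoa6, which belong to the Kmt2c and Kmt2d complexes, had no call in any of the 6 comparisons. Kdm6a, the H3K27 demethylase of that complex, had 15.7 and 12.5 FPKM in Th2 and 23.6 and 23.8 in CD4 T libraries (-0.72 ± 0.20, limma adjusted p = 0.0569).

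**Figure D4:**
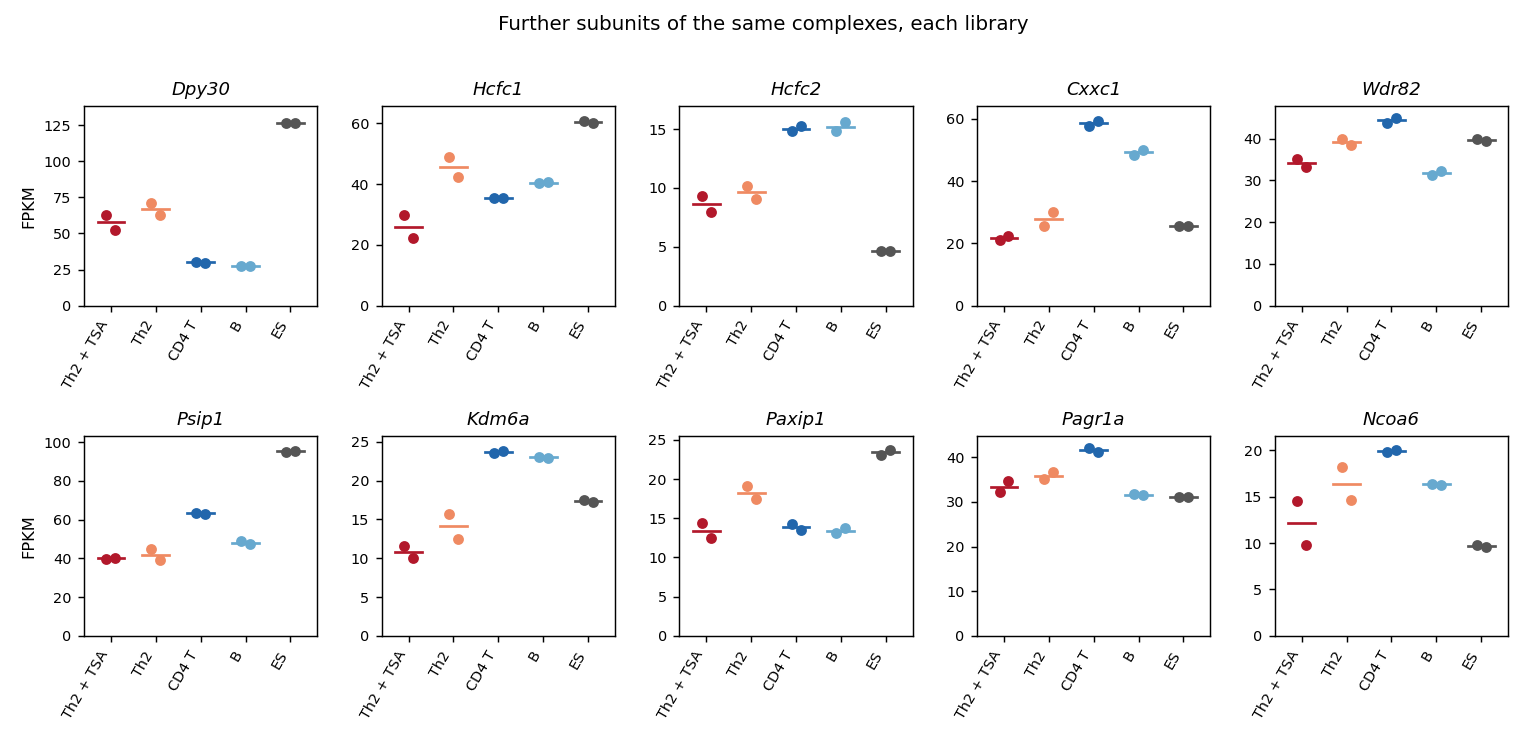
FPKM (linear axes from 0) of 10 further subunit genes in each library; points are libraries and lines are group means. Dpy30 is highest in ES (126.4 and 126.8 FPKM) and higher in the Th2 groups (52.7 to 70.8) than in CD4 T and B libraries (27.3 to 30.4), and Cxxc1 is highest in CD4 T and B libraries.

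Genes known to depend on Kmt2a or menin were listed as targets: 7 developmental factor genes of the Hox and Meis families, the cell cycle inhibitors Cdkn1b and Cdkn2c, and the transcription factors Gata3 and Bach2. Gata3, the master factor of Th2 cells, had 49.0 and 49.2 FPKM in Th2 + TSA, 80.3 and 98.1 in Th2, 19.9 and 20.3 in CD4 T, 0.48 and 0.54 in B, and 1.43 and 1.53 in ES libraries. It fell in treated against untreated cultures (-0.84 ± 0.13 SE, limma adjusted p = 0.0485) and rose in Th2 against CD4 T cells (2.09 ± 0.16, limma adjusted p = 0.00487). Bach2, a repressor that menin is known to sustain in T cells, had 7.5 and 6.54 FPKM in Th2 + TSA, 2.03 and 2.08 in Th2, 22.9 and 21.9 in CD4 T, 39.8 and 39.6 in B, and 0.99 and 0.87 in ES libraries. It rose in treated cultures (1.39 ± 0.11, limma adjusted p = 0.0301) and fell in Th2 against CD4 T cells (-2.94 ± 0.13, limma adjusted p = 0.00232). Bach2 was highest in B libraries, and the B cell markers stood higher in Th2 + TSA (13.95 to 38.35 FPKM) than in Th2 libraries (4.35 to 6.29) and in CD4 T libraries at 235 to 239.4, whose part in the Bach2 values was not tested.

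The cell cycle inhibitors on that list differed from each other. Cdkn2c rose in Th2 cells, with 23.6 and 19.5 FPKM in Th2 and 7.86 and 7.84 in CD4 T libraries (1.34 ± 0.17 SE, limma adjusted p = 0.0122), and had 32.9 and 29.4 in Th2 + TSA libraries. Cdkn1b had 18.3 and 38.7 FPKM in Th2 and 93.6 and 93.3 in CD4 T libraries and did not pass (-1.77 ± 0.63, limma adjusted p = 0.098). The listed Hox genes and Meis1 were below 4 FPKM in every library. Of them Meis1 was called higher in Th2 + TSA, at 0.25 and 0.19 FPKM against 0.02 and 0.05 in Th2, and Hoxa5 and Meis1 were called lower in Th2 against CD4 T cells, at levels under 1 FPKM in both groups. Of the 11 targets, 9 were tested in treated against untreated cultures, with 2 called higher and 1 lower, beside 9.26% and 4.14% of all genes, and with a median of 0.15. In Th2 against CD4 T cells 8 were tested, with 2 called higher and 3 lower, beside 16.9% and 38.1% of all genes, and with a median of -0.36. In Th2 against ES cells 3 of 8 were called higher and 4 lower, beside 19% and 43.1% of all genes, and with a median of -0.22. The 3 higher were Cdkn2c, Gata3 and Bach2, and the 4 lower were Hoxa5, Hoxa10, Hoxc6 and Meis1.

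The genes most like each of 3 members were taken by the smallest distance between centred log2(FPKM + 1) values over 7 samples, among 11695 genes. For Kmt2a these were Sgk3, Ankrd12 and Zfp169, at distances of 0.33, 0.36 and 0.37. Ankrd12, for example, averaged 5.11 FPKM in Th2 + TSA, 3.19 in Th2, 19.4 in CD4 T, 16.0 in B and 3.26 in ES cells. For Ash2l they were Lyar (0.34), Cct3 (0.40), which encodes a chaperonin subunit, and Rrp15 (0.41). For Men1 they were Arfgap3 (0.10), Ndufaf3 (0.19) and Bcl7c (0.26). Within the 8 genes, Kmt2a and Kmt2c were each other's nearest at 0.78, as were Ash2l and Wdr5 at 0.73 and Setd1a and Rbbp5 at 0.62, while Men1 was 1.36 from its nearest, Setd1a. These distances are descriptions over few samples that share library preparation, and no test goes with them.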

How the data were processed

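RNA-seq was read in 10 mouse libraries, grouped by sample title. The authors deposited 1 FPKM value per transcript row. The submitters' processing notes name mm10 and the tools Cufflinks 2.0.2, TopHat 1.3.2 and Bowtie 0.12.8. Their settings, strand use and read totals were not given in the sources used here, so depth is unknown and no counting interval can be given. The kit was TruSeq RNA v2, per the labels.

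Each file held 21035 rows for 19025 genes; the highest row stood for a gene, since, of 1449 symbols with several rows, 1322 had identical rows in the Th2 files and 45 in the ES, B and CD4 T ones. Deposited FPKM summed to 405438.5 to 521872.1 per library. Near-identical ES, B and CD4 T pairs were averaged, which left 7 samples and 2 residual degrees of freedom, and the lone CD4 T and ES samples are assumed to vary like the Th2 groups. limma 3.58.1 (R 4.3.3, trend) was fitted on log2(FPKM + 1), which understates changes of low genes, two-sided, with Benjamini-Hochberg adjustment over all genes tested and calls at adjusted p below 0.05. Genes at 0 throughout one kind of file were left out across kinds, which left 12367. The fit was tested on simulated data.

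Members and lists were chosen with earlier results of these data known. The text names the members and up to 4 genes per list by size. Of the subunit, target and SET domain lists it also names any gene that passed a test. Positions are from GENCODE M21 and promoter sequences from RefSeq (GRCm38.p6), the build of mm10. Alternatives covered scaling, pseudocount, filter, row choice, separate libraries, replicate block and left-out libraries.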

Additional observations from a re-analysis of the deposited data

How the results depend on the processing

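The 8 COMPASS genes were refitted under alternatives of scaling, pseudocount, filter, row choice, library averaging and left-out libraries. In Th2 + TSA against Th2, the count of COMPASS genes called higher was 0 as reported and 2 with 10 separate libraries, with or without a replicate block; the count called lower was 1 as reported, 0 after quantile normalization, 4 with 10 separate libraries, 5 with these and a block, and 0 without any one of the Th2 libraries. Keeping the near-identical pairs as separate libraries understates the spread. Counts over all genes in that comparison (1195 higher, 534 lower) were 570 and 201 without a filter, 3902 and 2872 with separate libraries, 3958 and 2969 with these and a block, 0 to 259 and 0 to 14 without 1 library, and, for lower calls, 1027 after quantile normalization and 863 in the 4 Th2 libraries alone with a block. In Th2 against CD4 T, COMPASS genes called higher were 3 after quantile normalization or with separate libraries, with or without a block, and 2 with size factors; those called lower (4) were 2 to 3 without 1 library. All genes called higher (2086) were 3442 after quantile normalization, 3369 with separate libraries, 3416 with these and a block and 942 to 1574 without 1 library, and those called lower (4709) were 2246 to 3846. In Th2 against ES, COMPASS genes called higher were 1 after quantile normalization, with size factors or with separate libraries, with or without a block; those called lower (5) were 2 with size factors and 1 to 4 without 1 library. All genes called higher (2355) were 3901 after quantile normalization and 1432 to 1900 without 1 library, and those called lower (5329) 3254 to 4583. Setd1a against ES reversed to 0.02 with size factors (limma adjusted p = 0.877). With a log2 fold change of at least 2 as the rule of size, COMPASS genes lower in CD4 T than in ES were 1, and in B against ES 1 was higher and 1 lower; all-gene counts were 1389 and 1531 for CD4 T against ES, 1220 and 1727 for B against ES, and 331 and 220 for CD4 T against B. The cause was not tested in any of these. The Th2 + TSA and Th2 libraries share only an experiment number: same-numbered libraries deviated together (correlation 0.577 over genes, a pairing hint from the data). The correlation of CD4 T with Th2 was 0.005. It gives no reference for that value, since the CD4 T libraries differ from each other no more than read sampling would leave them. Without read counts, what depth limits cannot be given.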

Other observations

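Other H3K4 and Trithorax SET domain genes, of which 5 of 7 listed were measured, moved in both directions in Th2 against CD4 T cells. Ash1l, a Trithorax group methyltransferase gene of H3K36, fell to 6.71 and 5.37 FPKM in Th2, against 23.4 and 23.4 in CD4 T libraries (log2 fold change -1.80 ± 0.18 SE, limma adjusted p = 0.00728), and had 5.21 and 4.71 in Th2 + TSA, 38.4 and 38.5 in B, and 7.81 and 7.75 in ES libraries. Its order over the groups had fresh lymphocytes at the top, as for Kmt2a and Kmt2c. Smyd3 fell to 1.56 and 1.53 FPKM in Th2, against 8.85 and 9.08 in CD4 T libraries (-1.97 ± 0.11, limma adjusted p = 0.00301), and was lower in Th2 than in ES cells too (-1.97, limma adjusted p = 0.00164). Smyd2, a lysine methyltransferase gene of the same family, rose to 32.2 and 28.6 FPKM in Th2, against 12.8 and 13.0 in CD4 T libraries (1.17 ± 0.28, limma adjusted p = 0.0418), and was at 17.6 and 12 in Th2 + TSA libraries (-1.01 ± 0.23 against Th2, limma adjusted p = 0.0792). Smyd1 was called lower in Th2 against CD4 T and ES cells at levels no higher than 2.02 FPKM in any library. Setd7, which monomethylates H3K4, had 19.0 and 12.3 FPKM in Th2 and 29.9 and 29.7 in CD4 T libraries and did not pass (-0.92 ± 0.31, limma adjusted p = 0.0906). In all, 1 of the 5 genes was called higher and 3 lower in Th2 against CD4 T cells, beside 16.9% and 38.1% of all genes, and none was called in Th2 + TSA against Th2.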
